A study of Mus musculus with 4 samples.

Results

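The Argonaute clusters described here lie in 3'UTRs of mouse genes that carried at least 1 called 3'UTR cluster in embryonic stem cells (ESCs) and at least 1 in myotubes. They were selected on the presence of a called cluster in both tables: rows annotated to a 3'UTR with a gene name were kept, genes found in each table were kept, and all their 3'UTR rows are members. The rule left 117 genes with 430 clusters out of the 3548 clusters of the tables, 262 in ESCs and 168 in myotubes. The members made up 19.8% (95% interval 17.7 to 22.02) of the 1325 ESC 3'UTR clusters and 46.3% (41.1 to 51.6) of the 363 myotube 3'UTR clusters. The 117 genes were 13.4% of the 871 genes with a 3'UTR cluster in ESCs and 42.5% of the 275 in myotubes. Being in both tables is therefore the choice made and not a result.

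The series mapped where Argonaute (AGO) sits on RNA in cytoplasmic and nuclear fractions by PAR-CLIP, with 1 sample in each of 4 groups. The cytoplasmic tables of both cell types are used, and the nuclear samples were not analysed here. ESCs carried a doxycycline-inducible HA-Flag-AGO2 transgene, received 2.5 ug/ml doxycycline 15 h before harvest, and were immunoprecipitated with FLAG-M2 antibody, so their reads come from tagged AGO2 alone. The myotubes were C2C12 cells, a mouse myoblast line, after 2 days of fusion, and their endogenous AGO proteins were captured with a Pan-AGO affinity peptide. Both received 312 nm light for 5 min and RNase T1 before and after the capture. Cell type, AGO source and capture method changed together and cannot be told apart. RNA levels were not measured, so AGO occupancy and the amount of the RNA cannot be told apart either, nor fewer cells from less RNA per cell. The libraries have no replicate, so no p-value between cell types is given. All intervals are 95% and cover counting error only, because copies made by PCR cannot be told from separate molecules here.

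AGO proteins hold a miRNA whose seed, bases 2 to 8, pairs with a complementary site that lies most often in the 3'UTR of a messenger RNA, which is then translated less and decays sooner. In PAR-CLIP a photoreactive uridine analogue crosslinks at the contact with the protein and is read as T-to-C, so the converted share of the reads of a cluster marks crosslinked RNA. ESCs are known for the miR-290 family and the related miR-17 family, and skeletal muscle for miR-1, miR-206 and miR-133. RNase T1 cuts RNA after G, which can bear on where clusters end, and this was not tested here.

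All clusters together held 214955 reads in ESCs and 135023 reads in myotubes. The member clusters held 3880 of the ESC reads, 24.9% of those in 3'UTRs, and 1983 of the myotube reads, 50.3% of those in 3'UTRs. Among 12 pluripotency markers, 6 had a 3'UTR cluster in ESCs, 0 in myotubes and 0 in both. Among 13 skeletal muscle markers, 6 had one in myotubes and 2, Mylpf and Tpm2, in both. No neuron, blood or fibroblast marker of the lists had a 3'UTR cluster in either table. No called cluster had fewer than 2 conversion positions. The fewest reads behind a cluster were 4 for ESCs and 5 for myotubes. At the edge of the rule, 20 member genes rested on 5 myotube reads and 9 on 5 ESC reads. Outside it, 754 genes had 3'UTR clusters in ESCs only, up to 261 reads in Nucks1, and 158 in myotubes only, up to 77 reads in Ppp2cb.

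Shared positions that hold a seed site are shown first, chosen for the site and not for their reads. Below are pairs that overlapped between the cell types and that held the same miRNA seed site in both, with the site in capitals (the 7 bases complementary to the miRNA seed). DNA letters are used as in the deposited tables, 5′ to 3′ in the sense of the RNA, with mm10 coordinates. Where the cluster differed in length, both versions are given.
Cnot6l, ESC, chr5:96075638-96075659, minus strand: aaacttttcatGCACTTTactg
Cnot6l, myotube, chr5:96075638-96075660, minus strand: taaacttttcatGCACTTTactg
Laptm4a, ESC, chr12:8938469-8938495, plus strand: ttcttttttaactttGCACTTTctttg
Laptm4a, myotube, chr12:8938467-8938495, plus strand: ttttcttttttaactttGCACTTTctttg
Tnpo1, ESC, chr13:98843011-98843033, minus strand: tattttcttacatACTGTGAatg
Tnpo1, myotube, chr13:98843011-98843032, minus strand: attttcttacatACTGTGAatg
Clta, ESC and myotube, chr4:44032659-44032680, plus strand: ttcttttGGACCAAaccttttg
Hnrnpu, ESC and myotube, chr1:178329257-178329280, minus strand: ctaactttttaaACATTCCacaag
Tob1, myotube, chr11:94215374-94215395, plus strand: tacctatattGTGCAATacttg

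These sites belong to the miRNAs below, from RefSeq (GRCm38.p6), with the seed in capitals. The site of miR-17 is in Cnot6l and Laptm4a, that of miR-27 in Tnpo1, of miR-133 in Clta, of miR-206 and miR-1 in Hnrnpu and of miR-25 in Tob1.
miR-17-5p: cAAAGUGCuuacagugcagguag
miR-27a-3p: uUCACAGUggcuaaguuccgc
miR-133b-3p: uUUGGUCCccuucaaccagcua
miR-206-3p: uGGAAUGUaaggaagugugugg
miR-25-3p: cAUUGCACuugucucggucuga

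Most overlapping pairs held no site of the searched families. The next lines show the pairs with the most reads in their smaller cluster among those without a site and up to 30 nt long, with no capitals because no site was found. Except for Btnl10 and Chd4, they are rich in U and C, with few G.
Btnl10, ESC and myotube, chr11:58925090-58925111, plus strand: gagttcagtgaggacagaaacc
Bsg, ESC, chr10:79711803-79711828, plus strand: atgtttttatttttccttcccttctg
Bsg, myotube, chr10:79711806-79711828, plus strand: tttttatttttccttcccttctg
Eif4h, ESC and myotube, chr5:134621169-134621190, minus strand: ctttctttctttcctttacacg
Hnrnpab, ESC and myotube, chr11:51601273-51601296, minus strand: catcttatttaaaatttcccccag
Gabarap, ESC and myotube, chr11:69994606-69994630, plus strand: ctcaaacaccacctcctttcttcag
Mt2, ESC, chr8:94173500-94173528, plus strand: actcgttctccacaactttttctataaag
Mt2, myotube, chr8:94173505-94173528, plus strand: ttctccacaactttttctataaag
Skp1a, ESC and myotube, chr11:52246194-52246217, plus strand: tttccttttccccccattactctg
Chd4, ESC and myotube, chr6:125130342-125130364, plus strand: ttttggttttattttgttggttt

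The G content that these lines show was general. No G stood before the last base in 71.4% (65.5 to 76.8) of ESC members and 79.8% (72.9 to 85.6) of myotube members, and 78.6% and 83.9% ended in G. The other 3'UTR clusters lacked such a G in 72.2% of 1063 ESC cases and 86.2% of 195 myotube cases. U made up 39.0% of the bases of the ESC members and 41.4% in myotubes, and G 6.47% and 5.34%. The Btnl10 cluster stood apart, with 7 G, which 5 ESC and 1 myotube member clusters reached or passed, and with 9 distinct sequences behind 125 ESC reads and 8 behind 96 myotube reads. Btnl10 encodes a butyrophilin-like membrane protein.

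Counted by gene, same and different positions were both common. In 67 of the 117 genes (57.3%, 47.8 to 66.4) an ESC cluster and a myotube cluster of the same gene had at least 1 nt in common, and in 50 genes none did. Strands had to match. The overlaps made 80 pairs, which used 80 of the 262 ESC clusters (30.5%, 25.02 to 36.5) and 80 of the 168 myotube clusters (47.6%, 39.9 to 55.5). Over all 3'UTR clusters of the tables the same overlaps were 6.04% of ESC clusters and 22% of myotube clusters. Overlapping clusters of one gene can only be members, so the rise from these shares to those of the members comes from the rule. There were 56 genes with 1 pair, 9 with 2 and 2 with 3, Cd164 and Gabarap. By reads, the overlapping clusters held 45.0% of ESC member reads and 58.7% of myotube member reads.

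Where clusters overlapped, their ends mostly coincided to the base. Start and end were identical in 40 of 80 pairs, the 5' end in 63 and the 3' end in 53. The shorter cluster lay wholly inside the longer in 77 pairs. The overlap had a median of 22.5 nt, from 13 to 46 nt, and both clusters of a pair had a median length of 23 nt. Only Naa50, Gnb1, Scd2 and Kctd20 had a pair with neither end in common. Naa50 encodes an N-terminal acetyltransferase, Gnb1 a G-protein beta subunit, Scd2 a fatty acid desaturase and Kctd20 a protein with a BTB domain.

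**Figure D1:**
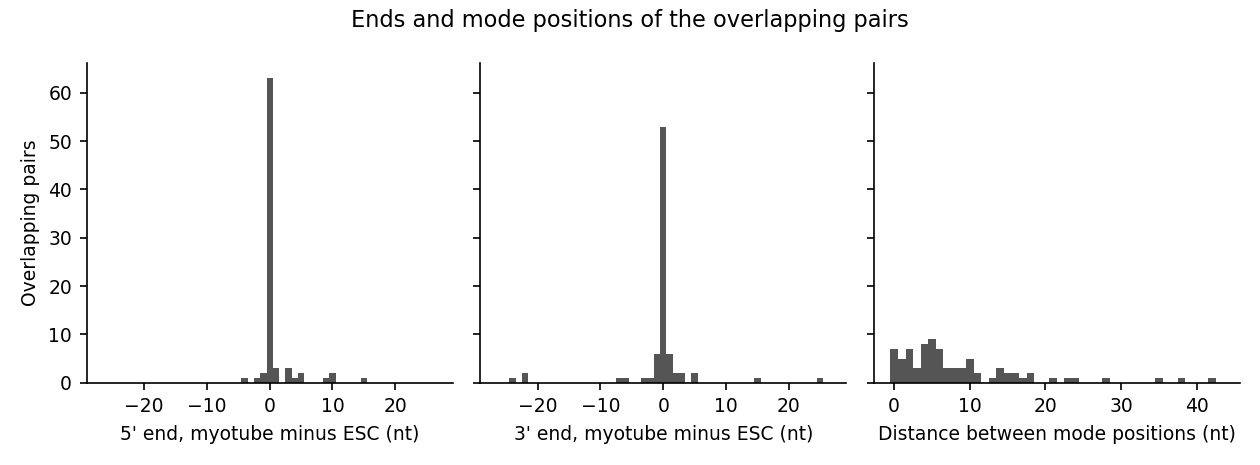
Shift of the 5' end (left) and the 3' end (middle) of the myotube cluster from the ESC cluster, in nt along the RNA, and the distance between their mode positions (right), as histograms of 80 overlapping pairs. The 5' end was the same in 63 pairs and the 3' end in 53, while mode positions coincided in 7 pairs and lay up to 42 nt apart.

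The mode position, which the caller gives as a point inside each cluster and whose definition is not given in the sources used here, was less alike than the ends. It was identical in 7 pairs and within 5 nt in 39, with a median distance of 6 nt. Btnl10, Cnot6l, Mt2, Chd4, Naa50, Nars and Tnpo1 had the same mode in both. Cnot6l encodes a CCR4-NOT deadenylase, Mt2 a metallothionein that binds zinc, Chd4 a nucleosome remodeller, Nars a tRNA synthetase and Tnpo1 a nuclear import receptor. The largest distance, 42 nt, was in Ywhae, which encodes a 14-3-3 adaptor protein: its ESC cluster was 43 nt long and its myotube cluster 21 nt, with the same 5' end.

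Large end shifts were seen where a cluster of one library was much longer. In Tmsb4x, which encodes thymosin beta 4, the main actin-sequestering peptide, the ESC cluster was 23 nt and the myotube cluster 48 nt, 25 nt longer at the 3' end. In Gabarap, an autophagosome protein, an ESC cluster of 48 nt faced a myotube cluster of 26 nt. In Ccng1, the gene of cyclin G1, an ESC cluster of 49 nt faced one of 25 nt. In Tob1, an antiproliferative protein that recruits CCR4-NOT, the ESC cluster of 37 nt began 15 nt upstream of the myotube cluster of 22 nt.

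The more reads a member cluster had, the more often it lay at a shared position. In ESCs 19.6% (9.82 to 33.1) of 51 clusters with 4 to 6 reads overlapped, 26.6% of 79 with 7 to 10 reads, 27.8% of 90 with 11 to 20 reads and 57.1% (41.0 to 72.3) of 42 with 21 or more. In myotubes the shares were 38.2% (25.4 to 52.3) of 55, 45.5% of 55, 56.1% of 41 and 64.7% (38.3 to 85.8) of 17. The ESC intervals of the lowest and the highest class do not overlap, and those of the myotube classes do. How far the calling limit sets the share of different positions was not tested.

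**Figure D2:**
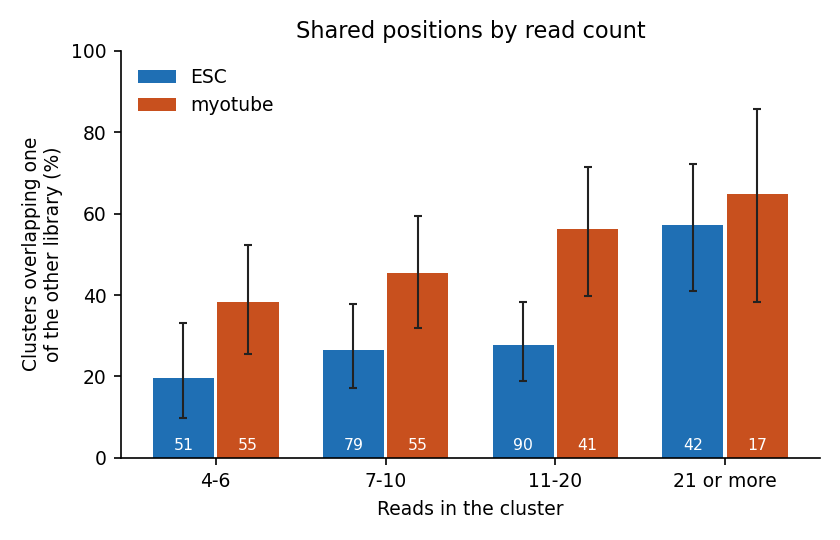
Share of member clusters that overlap a member cluster of the other library (y axis, percent) by reads in the cluster (x axis), for ESCs (blue) and myotubes (orange). Error bars are exact 95% binomial intervals and numbers in the bars are clusters. The share is lowest at 4 to 6 reads, 19.6% in ESCs and 38.2% in myotubes, and highest at 21 or more, 57.1% and 64.7%.

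In the 50 genes without a shared position, the clusters were usually well apart. The gap between the nearest ESC and myotube clusters had a median of 382.5 nt and ranged from 4 nt in Mrps2, a mitochondrial ribosomal protein, to 11810 nt in Tmpo, a protein of the nuclear lamina. It was up to 50 nt in 2 genes, up to 100 nt in 10, up to 500 nt in 31 and up to 1000 nt in 44. Gaps were taken along the genome, so they can include introns, and the clusters need not lie on one transcript form. Genes with a pair had more reads, a median of 25 in ESCs and 14 in myotubes, than genes without, 13 and 7. Of the 50 genes with 1 cluster in each library, 23 (46.0%, 31.8 to 60.7) had it at the same position.

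Pooled over genes, shared positions had a smaller median distance to the end of the RefSeq gene. The distance from the cluster to the 3' end of the RefSeq gene had a median of 672.5 nt for overlapping clusters in both libraries, which are the same positions. It was 1284 nt for the 180 non-overlapping ESC clusters inside their RefSeq gene and 1179.5 nt for the 88 non-overlapping myotube clusters. The ranges overlapped widely, from 14 to 21903 nt for overlapping clusters and from 12 to 20156 nt for non-overlapping ESC clusters. RefSeq gives the outermost end of a gene, so a cluster on a shorter transcript form counts as far from it. Distances run along the genome and can include introns. They were not compared within genes, and genes with many clusters weigh more in these medians.

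Most genes had few called clusters, and the ESC library had more. That library also held more 3'UTR cluster reads, 15585 against 3943 in myotubes. How far this depth sets the number of called clusters was not tested. A member gene carried a mean of 2.24 clusters in ESCs, from 1 to 12, and 1.44 in myotubes, from 1 to 7. The median was 1 in both. There were 46 genes with more clusters in ESCs, 58 with equal numbers and 13 with more in myotubes. In ESCs 32 genes (27.4%, 19.5 to 36.4) had 3 or more clusters, against 7.82% (6.01 to 9.98) of the 754 genes bound in ESCs only. In myotubes 11 genes (9.40%, 4.79 to 16.2) did, against 4.43% (1.80 to 8.92) of 158. The ESC intervals do not overlap and the myotube ones do. A gene with more clusters has more chances to be found in both tables, so the rule favours such genes.

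7 genes had at least 3 clusters in each library. Cbx5, which encodes heterochromatin protein HP1 alpha, had 12 clusters with 105 reads in ESCs and 3 with 26 reads in myotubes. They spanned from 506 to 8041 nt before the RefSeq 3' end. A single position was shared, 8041 nt from that end, with 19 reads in ESCs and 12 in myotubes, and it was the cluster with the most reads in both.

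Ccng1 had 10 clusters with 177 reads in ESCs and 3 with 30 reads in myotubes. Of the 3 myotube clusters 2 were at ESC positions, with 19 and 13 reads at the first and 7 and 7 at the second. The third lay directly beside an ESC cluster of 30 reads, with no base between. The ESC clusters with the most reads, 32 and 30, were not shared.

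Qk encodes the RNA-binding protein quaking, which controls splicing and the stability of RNA in muscle and glia. It had 7 clusters in each library, with 80 reads in ESCs and 56 in myotubes, and shared 2 positions. At the first, 1344 nt from the 3' end, ESCs had 15 reads and myotubes 13. At the second, 4419 nt from the end, they had 5 and 11. The leading ESC cluster of 32 reads had no counterpart, and its nearest myotube cluster of 5 reads was 14 nt away. The myotube clusters at 6528 and 7724 nt lay farther upstream than any ESC cluster.

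Cd164, the gene of the sialomucin endolyn, was the reverse case, with 3 clusters in ESCs and 7 in myotubes. All 3 ESC clusters were at myotube positions, with 14, 8 and 11 reads in ESCs and 14, 8 and 10 in myotubes. The other 4 myotube clusters had 5, 13, 9 and 29 reads. At the shared positions the raw read counts were thus nearly equal. As shares of all cluster reads they leaned to myotubes, with log2 ratios of -0.67, -0.67 and -0.53, and each interval included 0. With all 3'UTR reads as the total these ratios also move by -1.31. For the whole gene the raw counts were 88 reads in myotubes and 33 in ESCs.

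Gabarap was shared throughout. Its 3 clusters in each library matched, with 18 and 22 reads at the first, 38 and 19 at the second and 9 and 12 at the third, ESC first. Every cluster of both libraries was shared in 26 genes, 23 of which had 1 cluster in each. Scd2 had 7 clusters in ESCs and 3 in myotubes with 1 shared, of 8 and 6 reads. Ywhaz, another 14-3-3 gene, had 6 and 3 with 2 shared.

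**Figure D3:**
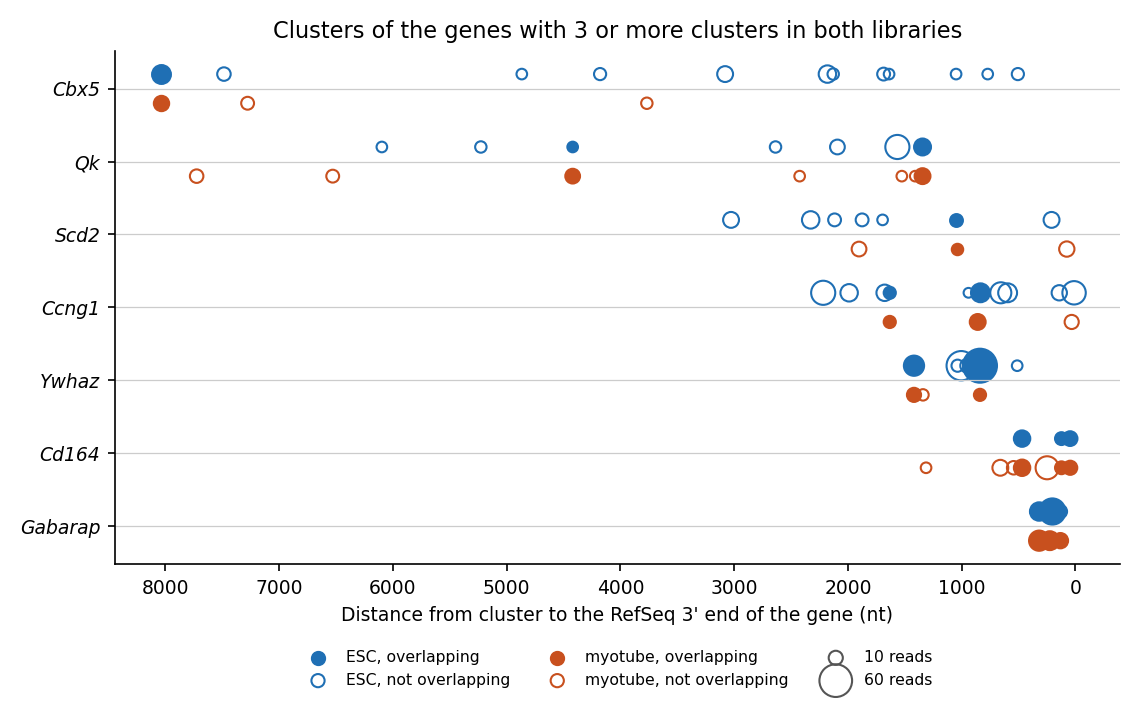
Clusters of the 7 genes with at least 3 clusters in both libraries, placed by their distance in nt from the RefSeq 3' end of the gene (x axis), ESC above and myotube below each line. Filled circles overlap a cluster of the other library, open circles do not, and the area grows with reads. All clusters of Gabarap and all ESC clusters of Cd164 are shared, while Cbx5 shares 1 position of 12.

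With several clusters, the leading one was often not the same. Of 22 genes with at least 2 clusters in both libraries, 19 had an overlapping pair, and in 5 the cluster with the most reads in ESCs overlapped that with the most reads in myotubes. These were Cbx5, Cnot6l, Ddx6, Nedd4 and Tmsb4x. Cnot6l was the most concentrated, with 32 of 38 ESC reads (84.2%) and 60 of 65 myotube reads (92.3%) at its miR-17 site. Ddx6 is an RNA helicase of processing bodies that acts with CCR4-NOT, and Nedd4 a ubiquitin ligase.

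Reads per gene varied widely in both libraries. The median was 20 reads in ESCs (5 to 282) and 8 in myotubes (5 to 189). As a description across genes of 2 libraries of unequal depth, Spearman's rho of the reads was 0.25 over 117 genes and 0.30 over the 80 pairs. Each gene's share of all cluster reads was compared as log2 of ESC over myotube. The median was 0.38, with the middle 50% of genes from -0.89 to 1.14, and over the 237 genes with a cluster of any class in both tables it was -0.04. The interval lay above 0 in 28 genes, below 0 in 21 and included 0 in 68. These counts hold for this total only and change with all 3'UTR reads as the total. They were not made over the 237 genes, so no background stands beside them.

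A share at least 2-fold higher in ESCs was found in 38 genes (32.5%), where 26.6% of the 237 genes passed, and at least 2-fold higher in myotubes in 25 genes (21.4%), where 27% passed. The members' shares are near that background. These directions depend on the total: with all 3'UTR reads as the total every ratio moves by -1.31, the median becomes -0.93, and 6 genes are at least 2-fold higher in ESCs and 55 in myotubes. The order of the genes does not change with the total.

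**Figure D4:**
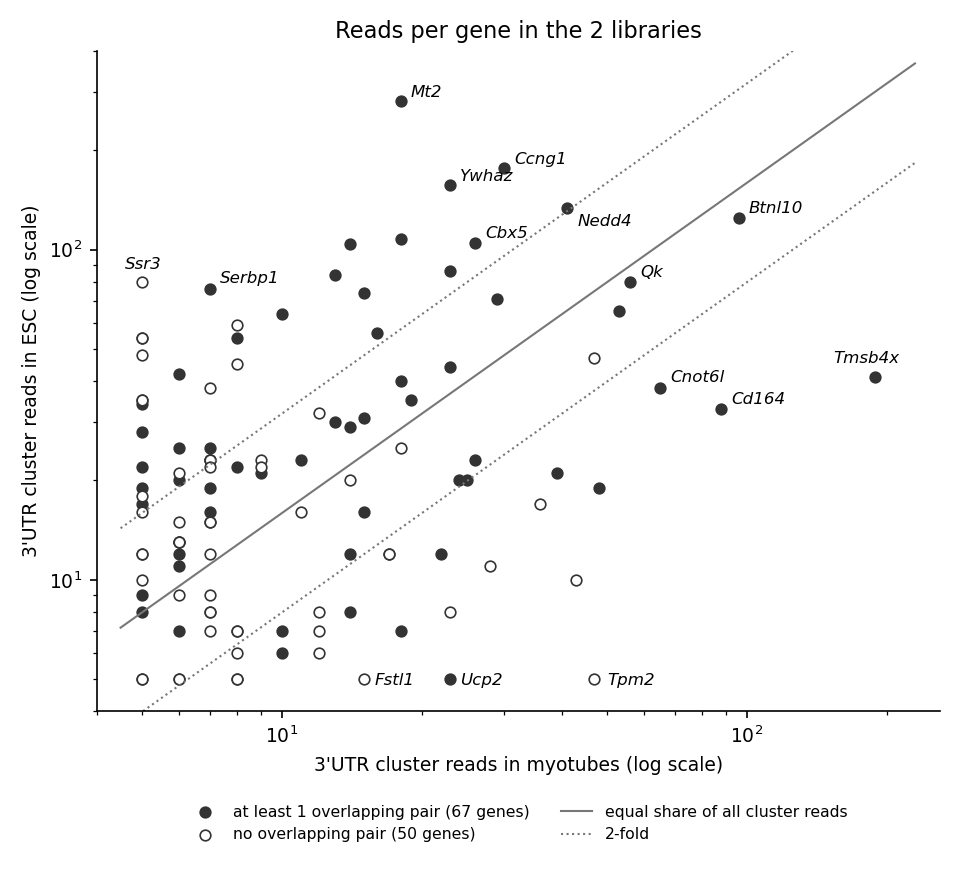
Reads in the 3'UTR clusters of each of the 117 genes in myotubes (x axis) and ESCs (y axis), both on log scales. The solid line marks an equal share of all cluster reads and the dotted lines a 2-fold difference, filled circles are genes with a shared position and open circles genes without. Mt2 with 282 and 18 reads lies farthest above the line among genes with a pair, and Tmsb4x with 41 and 189 reads farthest below.

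The 5 highest ratios belonged to Ssr3, Mt2, Serbp1, Vps35 and Kat7. Ssr3, which belongs to a complex beside the protein translocation channel of the endoplasmic reticulum, had 5 ESC clusters with 80 reads and 1 myotube cluster with 5 reads, 236 nt from the nearest of them (log2 3.33, 2.05 to 4.99). Mt2 had 282 reads in ESCs and 18 in myotubes in 1 shared cluster (3.30, 2.61 to 4.07), and its ESC cluster had 66 distinct sequences. Serbp1, an mRNA-binding protein of the ribosome, had 76 reads in 7 clusters and 7 reads in 1 (2.77, 1.66 to 4.13). Vps35, a retromer subunit, and Kat7, a histone acetyltransferase, each had 54 reads in ESCs and 5 in myotubes (2.76, 1.45 to 4.44).

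At the myotube end stood 2 genes of the actin cytoskeleton, Tpm2 and Tmsb4x, among others. Tpm2, the muscle tropomyosin beta, had 5 reads in 1 ESC cluster and 47 in 3 myotube clusters at other positions (log2 -3.90, -5.59 to -2.58). Tmsb4x had 41 and 189 reads (-2.88, -3.40 to -2.38). Ucp2, a mitochondrial carrier, had 5 and 23 reads (-2.87, -4.62 to -1.45). Fstl1, a secreted follistatin-like protein, had 5 and 15 reads at positions 1656 nt apart (-2.26, -4.07 to -0.72). These 4 intervals lie below 0, and the 5 at the ESC end lie above it. With all 3'UTR reads as the total, a shift of -1.31 leaves these 9 intervals on the same side of 0.

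Among other genes with many reads, the share of all cluster reads was nearly equal in Btnl10 and Qk. It was lower in ESCs in Csnk1a1 and higher in ESCs in the others named here. With all 3'UTR reads as the total each ratio moves by -1.31. Csnk1a1 then stays lower in ESCs, and Btnl10 and Qk become lower. Ppp1cb and Cd81 stay higher in ESCs and Eif4h becomes nearly equal, each with an interval that includes equal shares. Btnl10 had 125 reads in ESCs and 96 in myotubes (-0.29, -0.69 to 0.11) and Qk 80 and 56 (-0.16, -0.67 to 0.36). Csnk1a1, a kinase of the Wnt pathway, had 47 and 47 (-0.67, -1.29 to -0.06) in 4 and 2 clusters with no overlap. Ppp1cb, a catalytic subunit of protein phosphatase 1, had 108 and 18 (1.91, 1.19 to 2.72) and Eif4h, a translation initiation factor, 86 and 23 (1.23, 0.55 to 1.96). Cd81, a tetraspanin, had 84 and 13 (2.02, 1.17 to 2.99).

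Sites of one gene were also set against each other. They need not lie on the same transcript form, which was not measured. Of 11 genes with at least 2 shared positions, the lowest and the highest ESC to myotube ratio differed beyond counting error in 2 and not in 9. In Tmsb4x the site with 28 ESC and 155 myotube reads (log2 -3.14) and the site with 13 and 21 reads (-1.36) differed by 1.77 (0.48 to 3.02). At the first of these the ESC cluster was 23 nt and the myotube cluster 48 nt long, so their reads do not cover the same bases. In Ywhaz the site with 65 and 7 reads (2.54) and the site with 22 and 10 reads (0.47) differed by 2.05 (0.33 to 3.87). The highest and lowest site were picked by their values, and 11 genes were compared, which the intervals do not allow for. In Nedd4 the sites of 45 and 22 reads and of 27 and 19 reads differed by 0.52 (-0.70 to 1.75).

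Conversion was lower in ESCs at the same positions. The converted share of reads had a median of 67.4% over the 262 ESC members and 88.6% over the 168 myotube members, and 80.0% and 93.1% in other 3'UTR clusters. All reads were converted in 13.7% (9.81 to 18.5) of ESC members and 44.6% (37.0 to 52.5) of myotube members. No cluster of either table had fewer than 4 converted reads, so a cluster of 5 reads shows at least 80%, and shares of clusters with few reads are held up by that floor. Myotube members had fewer reads, a median of 8 against 11 in ESCs, and the other 3'UTR clusters of both libraries also had 8. Among members with at least 10 reads, where the floor is at most 40%, all reads were converted in 3 of 141 ESC and 12 of 64 myotube clusters. In the 80 pairs the median was 66.7% in ESCs and 83.3% in myotubes. The ESC share was lower in 59 pairs, higher in 15 and equal in 6, with a median difference of -18.3 percentage points. With at least 10 reads in both clusters, it was lower in 22 of 27 pairs and higher in 4, with medians of 57.5% and 75%.

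In 3 of 80 pairs the ESC and myotube intervals of the converted share lay apart. This is a stricter mark than an interval of the difference, which was not computed, so further pairs may differ beyond counting error. At the longer Tmsb4x site 28.6% (13.2 to 48.7) of 28 ESC reads and 77.4% (70.0 to 83.7) of 155 myotube reads were converted. In Eif4h it was 57.5% (40.9 to 73.0) of 40 and 95.7% (78.1 to 99.9) of 23, at identical ends. In Dazap2, a proline-rich adaptor protein, it was 31.0% (15.3 to 50.8) of 29 and 100% (59.0 to 100) of 7. The Tmsb4x clusters differ in length, so they do not cover the same bases. Across pairs, Spearman's rho of the converted shares was 0.22 over 80 pairs.

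**Figure D5:**
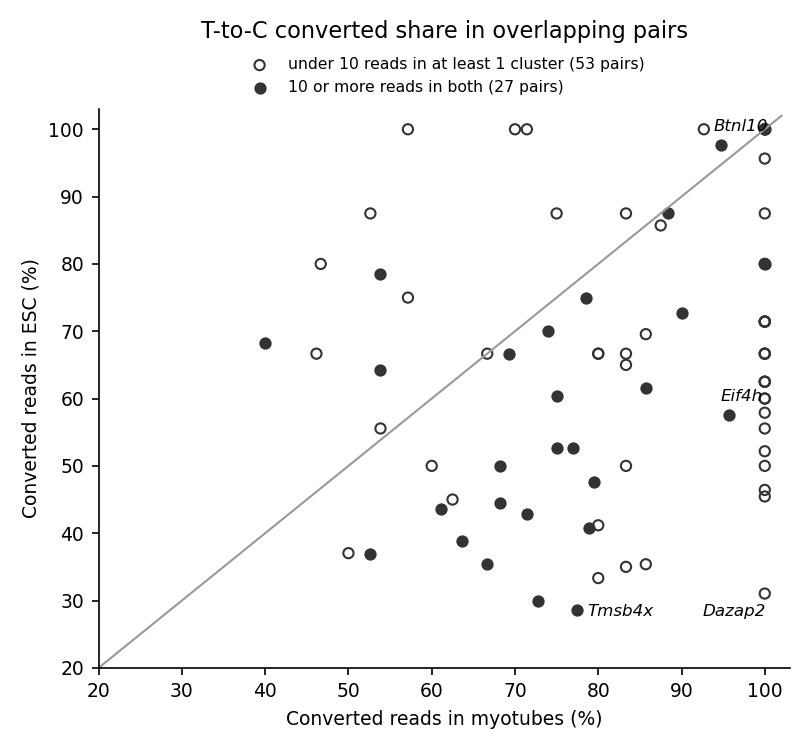
Share of reads with a T-to-C conversion in myotubes (x axis, percent) and ESCs (y axis, percent) for 80 overlapping pairs. Filled circles have at least 10 reads in both clusters, and the line marks equal shares. 59 pairs lie below the line and 15 above, and the named pairs Tmsb4x, Eif4h and Dazap2 have intervals that do not overlap.

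Few members held a seed site inside the cluster, in either library. Of 42 miRNA families searched with 7-base sites complementary to bases 2 to 8, at least 1 had a site in 20 of 262 ESC members (7.63%, 4.72 to 11.5) and in 20 of 168 myotube members (11.9%, 7.43 to 17.8). In the other 3'UTR clusters it was 99 of 1063 (9.31%, 7.63 to 11.2) and 20 of 195 (10.3%, 6.38 to 15.4). All intervals of a library overlap. Sites were searched on the transcript strand of the cluster only, since no sequence beyond the cluster ends was at hand, and a site that begins outside the cluster is missed. A match describes the letters and not a miRNA bound there. miR-143, miR-145, miR-378, miR-122 and miR-124 were not searched.

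Sites of the families known from ESCs were few among the members. The miR-17 site was in 4 ESC members (1.53%, 0.418 to 3.86) and in 34 other ESC clusters (3.20%, 2.23 to 4.44). The miR-290 site was in 2 members (0.763%, 0.0926 to 2.73), in Ccng1 and Cnot6l, and in 25 others (2.35%, 1.53 to 3.45). For both families the intervals of members and others overlap. In myotubes the miR-290 site was in 0 of 168 members, which allows a share of up to 2.172%, and 0 of 195 others. The miR-1 site was in 3 ESC members, Cltc, Hnrnpu and Tpm2, and in 4 myotube members, Cggbp1, Clcn3, Hnrnpu and Tmsb4x. The miR-27 site was in 1 ESC and 4 myotube members, and the let-7 site in 0 and 2, Rdx and Taok1.

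Paired clusters share most of their letters, so a site in one was mostly found in the other too. Of 80 pairs, 9 had a site in either cluster and 7 had the same site in both, namely Cnot6l, Laptm4a, Tob1, Clta, Hnrnpu, Smad7 and Tnpo1. At the Cnot6l miR-17 site shown above there were 32 reads in ESCs and 60 in myotubes (log2 -1.58, -2.24 to -0.94), with 87.5% and 88.3% converted and the same mode. At the Tnpo1 miR-27 site there were 7 and 41 reads (-3.22, -4.62 to -2.05) with 100% and 92.7% converted. These 2 pairs had more reads in myotubes, and their ESC and myotube intervals of the converted share overlapped.

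Laptm4a, a lysosomal membrane protein, had 14 and 13 reads at a stretch whose letters also hold the sites of miR-19 and miR-130, which overlap that of miR-17. Tob1 had 40 and 9 reads at its miR-25 site (1.48, 0.42 to 2.71). With all 3'UTR reads as the total, ratios move by -1.31, and the Tob1 interval then includes equal shares. Clta, a clathrin light chain, had 8 and 14 reads at the miR-133 site (-1.48, -2.94 to -0.13), and Hnrnpu, a nuclear RNA-binding protein, 20 and 8 at the miR-1 site (0.65, -0.59 to 2.04). Smad7, an inhibitor of TGF-beta signalling, had 25 and 7 reads at its miR-15 site (1.17, -0.08 to 2.62). The muscle miRNA sites in Clta and Hnrnpu thus lay in clusters of both cell types. In Gabarap (miR-30) and Ccng1 (miR-17) the site was in the longer ESC cluster only, in bases that the myotube cluster does not reach in full.

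In 2 genes each cell type had a site of another family at another place, and in others only 1 library had a site. They are shown here with the site in capitals, as examples of different positions. Clcn3, a chloride channel, had the miR-130 site in ESCs with 13 reads and the miR-1 site in myotubes with 6 reads, 556 nt apart. Ssr3 had the miR-9 site in ESCs with 13 reads and the miR-27 site in myotubes with 5 reads. Tmbim6, an inhibitor of cell death in the endoplasmic reticulum, had 28 myotube reads at a miR-27 site and an ESC cluster of 11 reads 73 nt away with no site. Tmsb4x had a myotube cluster of 13 reads with a miR-1 site, and one of miR-148 beside it, that lay 7 nt from the nearest ESC cluster. Tpm2 had the miR-1 site in its ESC cluster of 5 reads, and none in its myotube clusters.
Clcn3, ESC, chr8:60911990-60912012, minus strand: taattcataacTTGCACTaaatg
Clcn3, myotube, chr8:60912569-60912592, minus strand: catcacctttctACATTCCaaaag
Ssr3, ESC, chr3:65380364-65380393, minus strand: ttACCAAAGctaaaccaaactccttctaag
Ssr3, myotube, chr3:65381160-65381179, minus strand: tatttctACTGTGAttattg
Tmbim6, myotube, chr15:99409949-99409970, plus strand: ttctctaactcatACTGTGAag
Tmsb4x, myotube, chrX:167207463-167207486, minus strand: ccaatatgcactgtACATTCCacg
Tpm2, ESC, chr4:43514949-43514969, minus strand: tctcctaACATTCCtaacatg

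Counted over all members, 29 genes had a site in either library, 18 in ESCs, 20 in myotubes and 9 in both, of which 7 shared a family. Of the 22 sites in ESC members 8 were followed by A, and of the 24 in myotube members 14 were, the base opposite the first base of the miRNA. The overlapping Laptm4a sites count singly, and a site at the very end of its cluster, as in Cbx5, counts as not followed by A. Sites in the other 3'UTR clusters were not counted this way. The distance between the mode position and the start of the site had a median of 6 nt in ESCs and 2.5 nt in myotubes.

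Some genes of the miRNA effector and mRNA decay machinery were among the members. Of 40 listed genes, 15 had a 3'UTR cluster in ESCs, 7 in myotubes and 6 in both, and 5 of the 6 shared a position: Cnot6l, Ddx6, Lsm14a, Pum2 and Tob1. Over all members 67 of 117 (57.3%) did. Of all genes with a 3'UTR cluster, 13.4% of those in ESCs and 42.5% of those in myotubes were in both. Cnot7, a CCR4-NOT deadenylase, had 9 and 6 reads at different positions. Lsm14a, a processing body protein, had 20 and 24 reads (-0.93, -1.87 to -0.02) and Pum2, a Pumilio repressor, 35 and 5 (2.14, 0.78 to 3.85). With all 3'UTR reads as the total, ratios move by -1.31, and the Pum2 interval then includes equal shares. Ddx6 had 30 and 13 (0.54, -0.45 to 1.60). The list's median log2 ratio was 0.20, against 0.38 over all members.

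Of the members among cell cycle and growth genes, 5 of 6 had a share at least 2-fold higher in ESCs, against 32.5% of all members. With all 3'UTR reads as the total 0 of 6 did, against 6 of all 117 members. Of the members among actin and sarcomere genes, 3 of 6 had one at least 2-fold higher in myotubes, against 21.4% of all members, and 1 in ESCs. With the other total it was 5 in myotubes and 0 in ESCs, against 55 and 6 of all 117 members. Of 66 cell cycle and growth genes, 6 were bound in both: Ccng1, Csnk1a1, Ppp1cb, Ppp2ca, Ywhae and Ywhaz, with 35 ESC and 13 myotube clusters and a median of 1.76, and 5 of them shared a position. Of 71 actin, cytoskeleton and sarcomere genes 6 were: Kif5b, Msn, Mylpf, Tmsb4x, Tpm2 and Vcl, with a median of -1.12, of which Tmsb4x and Mylpf shared a position. Over all members 57.3% of genes shared a position. Mylpf, the fast muscle myosin light chain, had 12 and 14 reads at identical ends (-0.89, -2.14 to 0.33), in ESCs as well as in myotubes. A second RefSeq gene, Septin1, lies at this cluster.

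RNA-binding and splicing genes gave 8 of 61, with 4 sharing a position (Hnrnpa2b1, Hnrnpk, Hnrnpu and Qk) and a median of 0.62. Over all members 57.3% of genes shared a position and the median was 0.38. Membrane trafficking and secretory genes gave 10 of 68, with 7 sharing a position and a median of 0.65. Among them Cltc, the clathrin heavy chain, had 64 and 10 reads (2.01, 1.04 to 3.13) and Canx, the chaperone calnexin, 59 and 8 (2.21, 1.14 to 3.49). With all 3'UTR reads as the total, ratios move by -1.31, and the intervals of Cltc and Canx then include equal shares. The chromatin list gave 3 of 61, Cbx5, Chd4 and Smarca5, with a median of 1.14. It is not complete: Kat7, for example, is a member and not on it. The ubiquitin and proteostasis list gave 2 of 61, Nedd4 and Skp1a, with a median of 1.09.

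Of 73 transcription factors and co-regulators, 14 had a 3'UTR cluster in ESCs, 3 in myotubes and 1 in both, the muscle factor Mef2a, with 8 ESC reads in 1 cluster and 23 myotube reads in 3, the nearest 1729 nt apart (-2.19, -3.57 to -0.98). Of 36 TGF-beta, BMP and Nodal genes 6 had a cluster in ESCs, 5 in myotubes and 2 in both, Smad7 and Fstl1. Of 42 extracellular matrix and secreted genes 3 had a cluster in ESCs, 6 in myotubes and 0 in both.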

How the data were processed

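The members and gene lists were chosen with earlier results of these data known. The deposited tables hold 1 row per called Argonaute cluster, and the authors left its counts of reads, distinct sequences and conversions without normalization. The authors deposited the converted share of reads as a fraction, given here in percent. The deposited share of reads ending in G was not used: for 3'UTR clusters whose sequence ends in G its median was 100% on the plus strand and 0% on the minus strand in both tables. The submitters' processing notes name bcl2fastq 2.17.1 and mm10. The aligner and cluster caller, and whether samples were pooled: not given in the sources used here. Positions are 1-based mm10 as deposited. Every sample title ends in "(2)", whose meaning the labels do not give, so each table was taken as 1 library, assigned by its worksheet name.

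Python 3.11.15, pandas 2.3.3, numpy 2.4.6 and scipy 1.17.1 were used. Same-strand clusters of a gene with at least 1 nt in common were paired. Gaps and distances to the RefSeq 3' end were taken along the genome and can include introns. Shares carry exact Clopper-Pearson intervals, ratios of read shares exact conditional binomial intervals and differences between sites the exact conditional interval of the odds ratio, all at 95%. The methods were tested on simulated data. Genes were matched to RefSeq (GRCm38.p6) by symbol (111), synonym (4, among them Skp1a, named Skp1 there) or position (2, whose symbols the tables hold as dates). In 11 genes a cluster also lies in another RefSeq gene. Named were the 10 genes with the most reads in each library, genes with at least 3 clusters in both, the 10 pairs with the most reads in their smaller cluster, the 5 highest and 5 lowest ratios, pairs with a seed site in both clusters, pairs with the smallest and largest mode distance, and examples from the gene lists, of which 1 gene is not reported here. A few others illustrate end shifts, gaps, separate conversion intervals and seed sites and were chosen after their values were seen. Clusters longer than 30 nt are not printed.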

Additional observations from a re-analysis of the deposited data

How the results depend on the processing

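No paired analysis was possible because each group has 1 library. With clusters of at least 10 reads, 35 genes met the rule, 39.1% of their ESC clusters overlapped, the median log2 ratio was -0.59, 7 genes were at least 2-fold higher in ESCs and 11 in myotubes, and the median converted share was 62.5% in ESCs and 76.0% in myotubes. With clusters of at least 50% converted reads, 38.4% of myotube clusters overlapped. When mode positions within 5 nt defined a shared position, the shares were 14.9% of ESC clusters, 23.2% of myotube clusters and 29.1% of genes; overlaps of at least 10 nt or of at least 50% of the shorter cluster gave the same 80 pairs.

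With all 3'UTR reads as the total, the median ratio was -0.93, with 6 genes at least 2-fold higher in ESCs and 55 in myotubes. With the 3'UTR reads of the member genes as the total, it was 0.082, with 25 genes higher in ESCs. At 4-fold, 16 and 10 genes passed, and with distinct sequences in place of reads 16 were higher in myotubes. Summed over clusters, 62.5% of ESC and 81.5% of myotube reads were converted. Sites of 6 bases were in 19.5% of ESC and 23.8% of myotube members. The cause of these changes was not tested, apart from the totals, which shift every gene alike. The other alternatives stayed within the interval of the reported share or within 1.5 times the count, among them leaving out Btnl10, chosen after seeing the data. With a median of 11 reads per ESC and 8 per myotube member, conversion and read ratios of most single clusters were not resolved.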
